A study of Mus musculus with 6 samples.

Results

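The 44 genes described here encode the machinery that licenses origins, unwinds and copies DNA and repackages it, together with regulators of entry into S phase. They were chosen by symbol, and each matched 1 of the 21899 genes in the deposited table. They were measured by mRNA sequencing in C2C12 cells, a wild-type clonal mouse myoblast line that the labels call myocytes. The pyrimidine analogue 5-fluorouracil (5-FU) was present at 5 µg per L, a dose the series calls metronomic, over 24 hours in 3 of the libraries, and phosphate-buffered saline (PBS) was given in the other 3, the controls. The labels give no duration for PBS. A separate label for the line differs in its last digits for 5-FU replicates 2 and 3; the sample titles, which all read C2C12, were used.

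Before S phase, the origin recognition complex, Cdc6 and Cdt1 load the MCM helicase onto origins. Cdc45 and the GINS complex turn it into the active helicase, and the polymerases then copy both strands, held by the PCNA clamp that replication factor C loads. In cycling myoblasts these genes are transcribed under E2F factors, which RB proteins restrain, and muscle differentiation is known to silence them. 5-FU blocks thymidylate synthase and is built into DNA and RNA, which can slow replication forks.

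Not 1 of the 44 genes passed the test between 5-FU and PBS. edgeR's quasi-likelihood test, with Benjamini-Hochberg adjustment over 12135 tested genes, called 0 of 44 at an adjusted p under 0.05, where it called 7.14% of all tested genes. limma-voom also called 0, where it called 6.89% of all, and DESeq2 called 1, Pcna, where it called 8.08% of all. By direction, edgeR called 3.87% of all tested genes as higher and 3.26% as lower. At an unadjusted p under 0.05 edgeR had 7 members (15.9%), against 23.8% of all tested genes. Lower in 5-FU at that threshold were 6 of 44 members (13.6%), against 11.1% of all tested genes. At an adjusted p under 0.1 edgeR had 3 members, Pcna, Mcm6 and Cdc6, against 13.2% of all. All members passed the filter on low counts, with Dscc1 lowest at 81 counts in a library, so that no member dropped out. The authors' deposited table of 186 changed genes holds 0 of the 44; its smallest absolute log2 ratio is 0.585.

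The estimates were small and the intervals narrow. Log2 fold changes of 5-FU over PBS lay between -0.27 (Rpa3) and 0.21 (Mcm10), with a median absolute size of 0.051. That size was 0.10 over all tested genes and 0.089 over tested genes in the members' range of mean expression. The 95% interval lay inside a 1.5-fold change either way in 44 of 44 members, and within 0.32 of 0 on the log2 scale in 34 (77.3%). Among all 9311 tested genes in the members' range of mean expression, 96.0% and 70.5% lay inside those limits. The 10 members whose intervals reached past 0.32 were Cdc6, Cdt1, Mcm10, Gins3, Pola1, Dscc1, Rpa3, Tipin, Ccne2 and Chaf1b. The size of the estimate counts here as well as the width of the interval. Cdc6 (-0.36 to -0.056) had a narrower interval than Orc1 (-0.24 to 0.23), which stayed inside. A missed threshold does not show that a gene was equal in both groups; the intervals bound how large a difference could be.

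**Figure D1:**
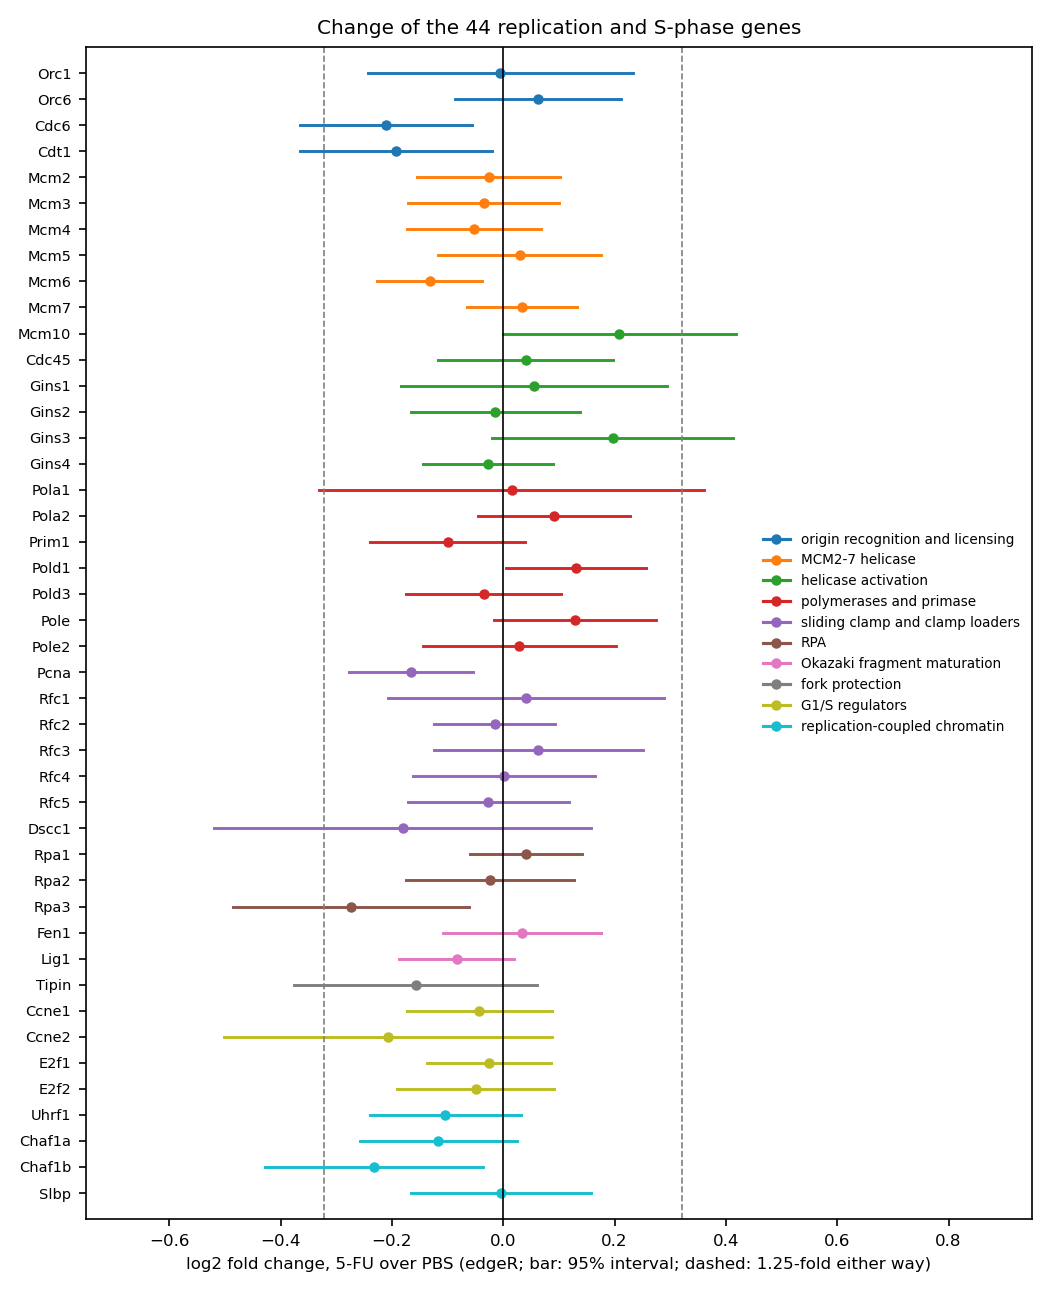
Log2 fold change of 5-FU over PBS (x axis) for the 44 genes (y axis), coloured by role, with 95% intervals from edgeR as bars and 0.32 either way as dashed lines. The estimates lie between -0.27 and 0.21, and 34 intervals stay between the dashed lines.

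The promoters show what most of these genes share beyond their function. RefSeq promoter windows (GRCm38.p6, 250 bases before to 50 after a transcript start) were found by symbol for 35 of the 44 genes. The motifs searched on either strand were of the E2F type, the core of the site that E2F factors bind. The first was TTCCCGC. Another, with a different middle, was TTGGCGC. The others were TTCGCGC and, with a changed middle again, TTGCCGC. At least 1 of them was present in 24 of 35 (68.6%). The share was 19.8% of 9560 tested genes with a window and 10.9% of all 27025 genes with one. At least 2 matches, overlapping ones included, were found in 11 members (31.4%), against 2.77% of tested genes. The CCAAT box, bound by NF-Y, was present on either strand in 22 (62.9%), against 43.4% of tested genes. Base composition was not matched between these groups of promoters, and a match only describes the letters. On the other strand CCAAT reads ATTGG, which can share bases with the second motif.

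The 200 bases before the start are printed for 5 genes with different values in the comparison, 5′ to 3′ on the gene's strand, from RefSeq on GRCm38.p6, with E2F-type matches in capitals. Mcm6 and Rpa3 had lower values in every 5-FU library, Gins3 had higher ones, Mcm5 had overlapping ones, and Pcna had the lowest p of all members.
Mcm6 (chr1:128359706-128359905, minus strand): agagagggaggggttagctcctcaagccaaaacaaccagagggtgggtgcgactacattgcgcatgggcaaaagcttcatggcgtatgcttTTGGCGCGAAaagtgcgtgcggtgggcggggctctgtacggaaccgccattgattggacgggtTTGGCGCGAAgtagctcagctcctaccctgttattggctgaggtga
Rpa3 (chr6:8259142-8259341, minus strand): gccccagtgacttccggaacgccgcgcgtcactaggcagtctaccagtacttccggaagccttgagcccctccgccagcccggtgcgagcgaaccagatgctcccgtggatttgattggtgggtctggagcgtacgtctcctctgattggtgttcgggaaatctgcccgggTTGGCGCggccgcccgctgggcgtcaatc
Mcm5 (chr8:75109309-75109508, plus strand): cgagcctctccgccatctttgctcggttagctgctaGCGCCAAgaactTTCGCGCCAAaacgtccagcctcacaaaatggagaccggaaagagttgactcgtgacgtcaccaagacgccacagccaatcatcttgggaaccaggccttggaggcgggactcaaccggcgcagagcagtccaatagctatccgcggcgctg
Gins3 (chr8:95633359-95633558, plus strand): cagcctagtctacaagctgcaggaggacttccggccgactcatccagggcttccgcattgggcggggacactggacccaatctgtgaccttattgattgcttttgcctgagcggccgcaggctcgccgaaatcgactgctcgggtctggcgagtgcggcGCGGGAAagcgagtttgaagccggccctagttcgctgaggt
Pcna (chr2:132253181-132253380, minus strand): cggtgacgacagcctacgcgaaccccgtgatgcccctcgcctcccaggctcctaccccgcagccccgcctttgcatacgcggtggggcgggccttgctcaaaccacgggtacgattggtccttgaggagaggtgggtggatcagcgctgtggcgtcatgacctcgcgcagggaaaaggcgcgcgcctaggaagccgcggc
Mcm6 holds 4 matches in this stretch, as overlapping pairs that begin at -109 and -46 from the start, and Mcm5 holds 3, the first at -164. Rpa3 and Gins3 hold 1 each, at -29 and -41, and Pcna holds 0, which says only that these letters are not there. The 24 members with a match had a median log2 fold change of -0.029 and the 11 without had -0.0045, with ranges of -0.27 to 0.20 and -0.17 to 0.21.

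Levels across the machinery spanned a wide range, and their order is given per transcript length, in TPM averaged over all 6 libraries (SD over 6). The highest were Pcna at 329 ± 19, the helicase subunit Mcm7 at 161 ± 9.7 and Rpa1, the large subunit of the single-strand binding protein RPA, at 133 ± 5.6. The lowest were Pola1, the catalytic subunit of polymerase alpha, at 2.44 ± 0.36, the origin recognition subunit Orc1 at 5.46 ± 0.38 and the cyclin gene Ccne2 at 6.04 ± 0.83. The 6 libraries' values overlapped between the neighbours Orc1 and Ccne2, between Ccne2 and the next above it, Dscc1 (7.20 ± 0.90), and between Rpa1 and the next in order, Mcm6 (127 ± 5.7).

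Subunits of 1 complex were not at 1 level. In the MCM ring, Mcm7 and Mcm6 were above Mcm3 (89.8 ± 5.1), Mcm2 (87.0 ± 4.8) and Mcm5 (83.9 ± 6.1), which overlapped each other, and Mcm4 was lowest at 59.7 ± 3.1 TPM. In GINS, Gins4 stood at 51.7 ± 1.2 TPM, above Gins2 (22.3 ± 1.3), Gins1 (13.4 ± 0.88) and Gins3 (11.2 ± 1.4). Pola1 was far below Pola2, its partner subunit, at 47.3 ± 2.5 TPM, and the primase subunit Prim1 at 31.8 ± 1.4. Among the clamp loaders the large subunit Rfc1 (11.8 ± 1.7) was below Rfc2 (27.4 ± 0.74), Rfc4 (34.9 ± 1.6), Rfc5 (35.7 ± 1.5) and Rfc3 (43.1 ± 3.5). TPM depends on the transcript lengths the authors' tool assigned, so these orders carry that assignment.

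**Figure D2:**
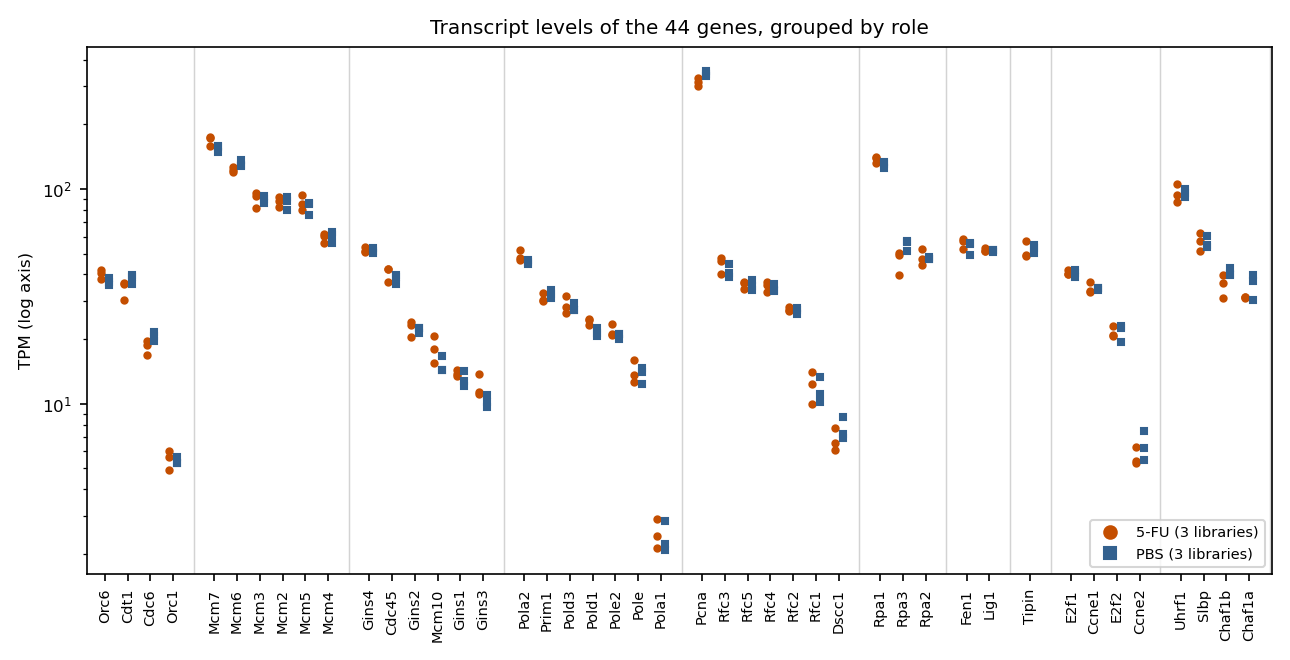
TPM on a log axis for each of the 44 genes, grouped by role and sorted within a role, with 1 point per library (circles, 5-FU; squares, PBS). Levels run from 2.44 TPM for Pola1 to 329 TPM for Pcna, and the groups lie close together at each gene.

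Of the 4 origin licensing genes, Cdc6 and Cdt1 had groups that did not overlap, as had 29.3% of all tested genes. Values are CPM, counts relative to library size scaled with TMM factors, in the order of replicates 1, 2 and 3. Cdc6 (ENSMUSG00000017499), the ATPase that brings the MCM ring to origins, stood at 29.1, 25.8 and 29.0 in 5-FU against 33.7, 30.3 and 33.2 in PBS. Every 5-FU library lay below every PBS library (log2 fold change -0.21, SE 0.070, edgeR adjusted p = 0.0949). Cdt1 (ENSMUSG00000006585), its partner in loading, stood at 39.3, 32.7 and 39.8 in 5-FU against 42.6, 40.1 and 45.2 in PBS, again without overlap (-0.19, SE 0.079, adjusted p = 0.161). Without 5-FU replicate 2 its log2 fold change was -0.11. The origin recognition subunits Orc1 (-0.0053) and Orc6 (0.063) had overlapping groups. In bulk RNA, fewer cells in S phase and less RNA per cell cannot be told apart.

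Among the 6 subunits of the MCM ring, 1 had groups that did not overlap, where 29.3% of all tested genes had such groups. Mcm6 (ENSMUSG00000026355) stood at 184, 173 and 179 CPM in 5-FU against 201, 190 and 196 CPM in PBS (log2 fold change -0.13, SE 0.043, edgeR adjusted p = 0.0897). Mcm2, at 148, 137 and 153 CPM in 5-FU against 155, 137 and 154 CPM in PBS, and Mcm5, at 117, 108 and 128 against 117, 107 and 122, overlapped. The intervals of all 6 subunits lay within 0.32 of 0, and their log2 fold changes ran from -0.13 to 0.034 (Mcm7).

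Of the 6 genes that activate the helicase, 4 had positive and 2 negative log2 fold changes. By edgeR 0 had an unadjusted p under 0.05, against 23.8% of all tested genes. Mcm10, a scaffold that helps the helicase fire, stood at 32.2, 27.3 and 36.1 CPM in 5-FU against 29.9, 26.2 and 26.8 CPM in PBS. Its groups overlapped through 5-FU replicate 2 (0.21, SE 0.095, edgeR adjusted p = 0.212). Gins3, at 13.8, 14.0 and 17.1 CPM in 5-FU against 13.5, 13.1 and 12.6 CPM in PBS, did not overlap, with a log2 fold change of 0.20 (SE 0.099, edgeR adjusted p = 0.251). Without 5-FU replicate 3 the values were 0.083 for Gins3 and 0.11 for Mcm10. Cdc45 (0.041), Gins1 (0.055), Gins2 (-0.014) and Gins4 (-0.027) overlapped.

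Polymerase genes had 5 positive and 2 negative values among 7. Pold1 (ENSMUSG00000038644), the catalytic subunit of polymerase delta, stood at 43.0, 39.4 and 41.7 CPM in 5-FU against 38.8, 36.4 and 38.2 CPM in PBS. It was higher in every 5-FU library (log2 fold change 0.13, SE 0.057, edgeR adjusted p = 0.192), the 1 member of the 7 at an unadjusted p under 0.05 that was higher. Pole, the catalytic subunit of polymerase epsilon, had a value of the same size by counts (0.13) with overlapping groups, but 0.026 by log2(TPM + 1), where Pold1 had 0.16. Pola2 (0.091), Pole2 (0.029), Pola1 (0.015), Pold3 (-0.035) and Prim1 (-0.10) overlapped too.

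Pcna (ENSMUSG00000027342), the sliding clamp, gave the lowest p of the 44. It stood at 251, 224 and 236 CPM in 5-FU against 261, 258 and 279 CPM in PBS, or 237 ± 13 against 266 ± 11 (SD, n = 3). All 5-FU libraries lay below all PBS libraries (log2 fold change -0.17, 95% interval -0.28 to -0.054, edgeR adjusted p = 0.0742). DESeq2 called it at an adjusted p of 0.0419, and so did edgeR without 5-FU replicate 1 (adjusted p = 0.0487), where 5.38% of all tested genes were called. The 5 clamp loader genes Rfc1 to Rfc5 lay between -0.027 and 0.063 with overlapping groups, and Dscc1, of the alternative loader used in cohesion, stood at -0.18 with a wide interval (-0.52 to 0.16).

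Rpa3 (ENSMUSG00000012483), the small subunit of RPA, had the largest estimate, with 16.6, 13.1 and 16.8 CPM in 5-FU against 19.1, 19.2 and 17.9 CPM in PBS. Its groups did not overlap (log2 fold change -0.27, SE 0.096, edgeR adjusted p = 0.110), while its partners Rpa1 (0.041) and Rpa2 (-0.023) overlapped. Without 5-FU replicate 2 Rpa3 stood at -0.17, a smaller size than Mcm10 had (0.30). Of the genes that finish Okazaki fragments, the DNA ligase Lig1 stood at 73.7, 68.8 and 74.3 CPM in 5-FU against 76.7, 76.5 and 76.6 CPM in PBS, and the flap nuclease Fen1 (0.034) overlapped. Lig1 was lower in every 5-FU library by counts (-0.084, SE 0.047, adjusted p = 0.306), but not by TPM, at 52.0 ± 1.0 in 5-FU and 51.6 ± 0.80 in PBS (n = 3). Tipin, which with Timeless guards stalled forks, stood at 19.4, 19.5 and 22.4 CPM in 5-FU against 22.0, 20.2 and 26.2 CPM in PBS, with overlap. Its log2 fold change was -0.16 by counts and -0.0295 by log2(TPM + 1). The ratio of TPM to CPM for Tipin ran from 2.10 to 2.62 over libraries, and its part in the TPM values was not tested.

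**Figure D3:**
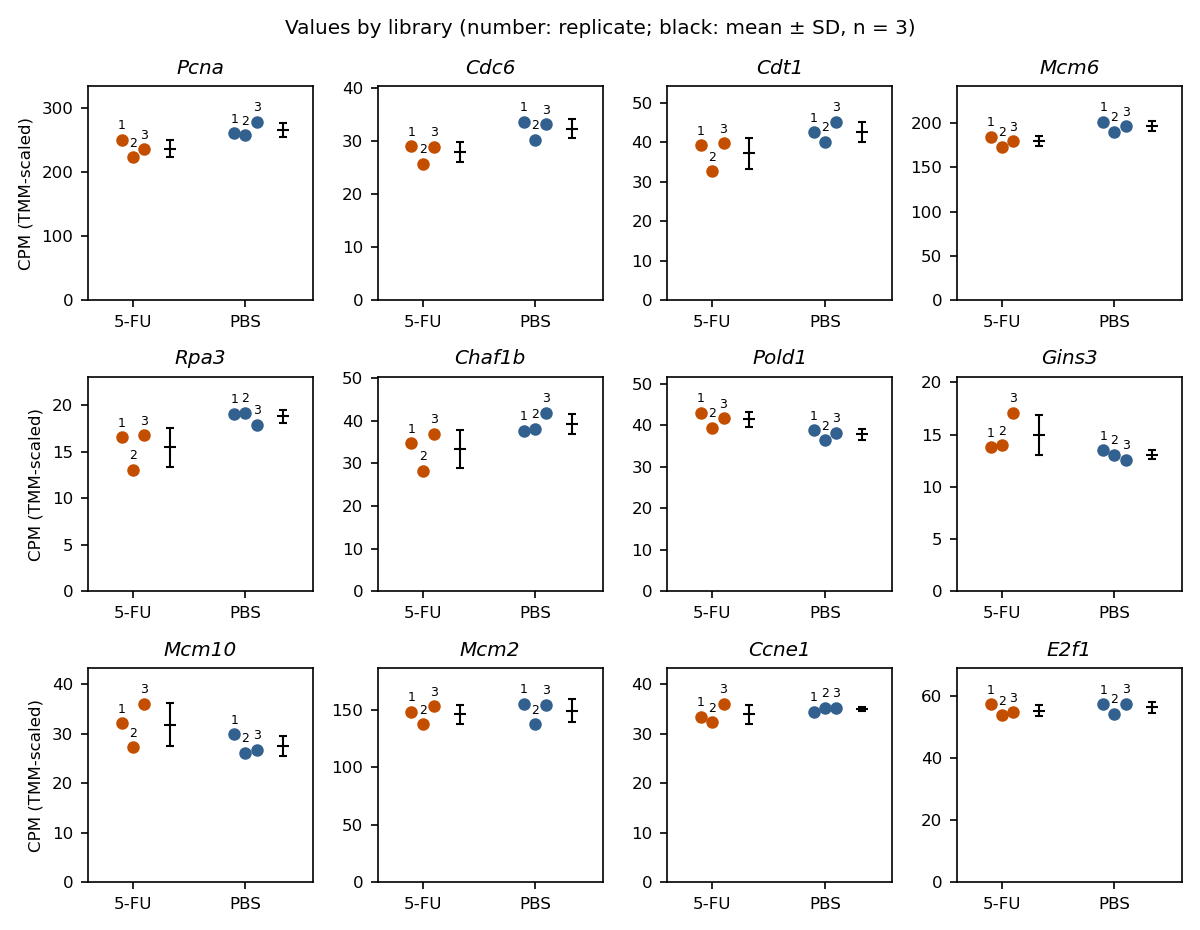
CPM by library for 12 members, with 5-FU on the left of each panel, the replicate number above each point and the mean ± SD (n = 3) in black. Pcna, Cdc6, Cdt1, Mcm6, Rpa3 and Chaf1b lie lower in every 5-FU library and Pold1 and Gins3 higher, while Mcm10, Mcm2, Ccne1 and E2f1 overlap.

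Of the 4 regulators of S-phase entry, 0 had groups that did not overlap, where 29.3% of all tested genes had such groups. Ccne1, which encodes the cyclin that drives CDK2 at the G1/S step, stood at 33.4, 32.3 and 36.0 CPM in 5-FU against 34.4, 35.2 and 35.2 CPM in PBS (log2 fold change -0.043, 95% interval -0.17 to 0.088). E2f1 stood at 57.4, 53.9 and 54.7 CPM in 5-FU against 57.3, 54.3 and 57.5 CPM in PBS (-0.025, 95% interval -0.14 to 0.086). E2f2 (-0.050) overlapped too. The scarcer Ccne2, at 7.76, 7.84 and 9.13 CPM in 5-FU against 9.12, 8.11 and 11.4 CPM in PBS, was measured less precisely (-0.21, SE 0.13), and its value without PBS replicate 3 was -0.064.

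Of the genes for packaging new DNA, Chaf1b (ENSMUSG00000022945), a subunit of the histone chaperone CAF-1, stood at 34.8, 28.3 and 37.0 CPM in 5-FU against 37.7, 38.2 and 41.9 CPM in PBS. Its groups did not overlap (log2 fold change -0.23, SE 0.089, edgeR adjusted p = 0.139), and its value without 5-FU replicate 2 was -0.13. Uhrf1, which brings the maintenance methyltransferase to new DNA, overlapped at 164, 143 and 163 CPM in 5-FU against 174, 157 and 174 CPM in PBS (-0.10, and -0.0075 by log2(TPM + 1)). Without 5-FU replicate 2 its value by counts was -0.044. Chaf1a (-0.12), the other CAF-1 subunit, and the histone mRNA binding protein gene Slbp (-0.0045) overlapped as well. Chaf1a counts were not whole numbers, and its ratio of TPM to CPM ran from 0.446 to 0.542 over libraries; the part of this ratio in its TPM values was not tested.

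Counted over roles, 9 of 44 members (20.5%) had groups that did not overlap in CPM, against 29.3% of all tested genes. They were 7 lower in 5-FU, namely Cdc6, Cdt1, Mcm6, Pcna, Rpa3, Lig1 and Chaf1b, against a background of 14.2%, and 2 higher, Gins3 and Pold1, against 15.0%. Negative log2 fold changes were found in 27 members and positive ones in 17 (median -0.024, all genes 0.0012), but in 14 and 30 by log2(TPM + 1) (median 0.017, all genes 0.037).

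Replicate 2 stood apart among the libraries of both groups. Of the 44 members, 26 were lowest of all 6 libraries in 5-FU replicate 2, and 39 lay below their own mean there. The median deviation from a gene's mean over 6 libraries, on log2(CPM + 1), was 0.017, -0.11 and 0.041 in 5-FU replicates 1 to 3 and 0.028, -0.038 and 0.043 in PBS replicates 1 to 3. Over all tested genes the median deviation stayed between -0.0015 and 0.0065. Replicate 2 was lowest within its group for 35 members in 5-FU and 31 in PBS, and in both for 26, where 33.2%, 29.0% and 12.5% of all tested genes did so. Without 5-FU replicate 2 the members' median log2 fold change turned to 0.021, with 18 negative values.

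Within each group, most markers of differentiated muscle were highest in replicate 2. The marker sum of 5-FU replicate 1 was above that of every PBS library, and its median deviation of the members was 0.017. Single markers went both ways between 5-FU replicate 1 and PBS replicate 2. Mylpf was higher in the former (1095 against 1067 TPM) and Acta1 lower (865 against 941 TPM). The 10 markers (Myog, Mymk, Mymx, Myh3, Myh1, Ckm, Acta1, Tnnt3, Mylpf and Actn3) summed to 3170, 4482 and 2679 TPM in 5-FU and 2708, 3103 and 2561 TPM in PBS. Replicate 2 held the highest level of 10 of them within 5-FU and of 8 within PBS, and 9 had their highest level of all 6 libraries in 5-FU replicate 2. Between groups edgeR called 1 of these 10, Actn3 (log2 fold change 0.37, adjusted p = 0.0483), where it called 7.14% of all tested genes. Myh1 stood at -0.53 (edgeR adjusted p = 0.119) and Myh3 at -0.058 on the same scale. All the other markers had positive values. Without an edgeR call these were Mymx (0.58), Mymk (0.395), Mylpf (0.35), Myog (0.33), Acta1 (0.10), Ckm (0.088) and Tnnt3 (0.082). The part of muscle differentiation in the members' values was not tested.

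**Figure D4:**
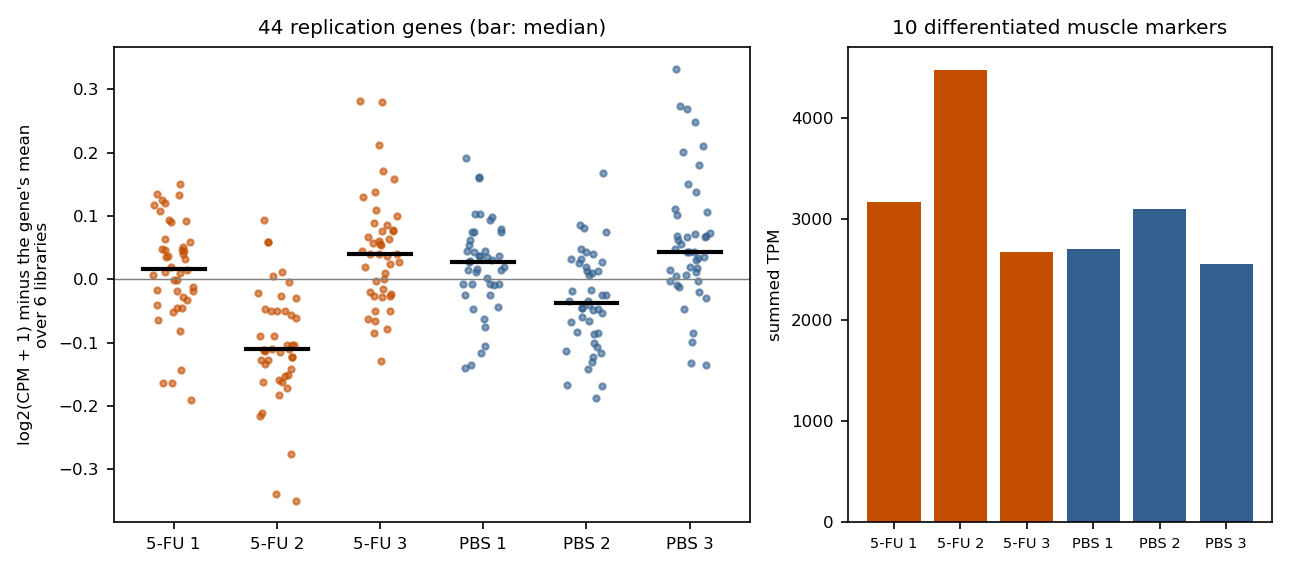
Left, deviation of each of the 44 genes from its own mean over 6 libraries, on log2(CPM + 1), with the median as a bar; right, summed TPM of 10 differentiated muscle markers per library. 5-FU replicate 2 has the lowest gene median, -0.11, and the highest marker sum, 4482 TPM.

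Of 75 other genes of the pathway, edgeR called 5 (6.7%), against 7.14% of all tested genes, and 4 of the 5 were arrest genes. Of 37 further replication factors, such as the other origin recognition subunits, the fork protein Timeless and the checkpoint mediator Clspn, edgeR, DESeq2 and limma-voom called 0, with 6 at an unadjusted p under 0.05 by edgeR (16.2%, against 23.8% of all). Dbf4, which activates the Cdc7 kinase at origins, had the lowest p, with 19.9, 20.9 and 25.2 CPM in 5-FU against 26.5, 25.9 and 29.1 CPM in PBS (log2 fold change -0.30, edgeR adjusted p = 0.0680). Its groups did not overlap. Without 5-FU replicate 3 edgeR called Dbf4 (-0.42, adjusted p = 0.0197) among 491 of 12211 tested genes. Without the filter on low counts it called Dbf4 (-0.31, adjusted p = 0.0376) among 1045 of 15909. Leaving out any other single library gave Dbf4 an edgeR adjusted p between 0.113 and 0.187. Of 11 genes of chromatin assembly and DNA methylation the 3 tools called 0. By edgeR 2 were at an unadjusted p under 0.05, against 23.8% of all tested genes. The histone chaperone gene Nasp stood at 42.0, 39.7 and 44.5 CPM in 5-FU against 45.0, 52.4 and 50.3 CPM in PBS (-0.23, edgeR adjusted p = 0.0682). Without PBS replicate 1 edgeR called Nasp (-0.29, adjusted p = 0.0429) among 498 of 12236 tested genes. It also called Nasp without the filter (-0.23, adjusted p = 0.0477). Leaving out any other single library gave Nasp an edgeR adjusted p between 0.0753 and 0.242.

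Of 21 genes of E2F and RB control, 1 rose (4.8%) and 0 fell, where 3.87% of all tested genes rose and 3.26% fell. Rb1, which encodes the protein that restrains E2F, stood at 41.3, 51.9 and 45.8 CPM in 5-FU against 34.7, 34.7 and 40.2 CPM in PBS (log2 fold change 0.34, SE 0.087, edgeR adjusted p = 0.0386). DESeq2 (0.34, adjusted p = 0.00775) and limma-voom (0.34, adjusted p = 0.0425) called Rb1 too. So did edgeR without 5-FU replicate 1 (0.42, adjusted p = 0.0175) or without PBS replicate 3 (0.41, adjusted p = 0.0295). The edgeR call was lost when 5-FU replicate 2 (log2 fold change 0.25, adjusted p = 0.109) or 3 (0.35, adjusted p = 0.0824) was left out. It was also lost leaving out PBS replicate 1 (0.30, adjusted p = 0.109) or 2 (0.31, adjusted p = 0.154), and by limma on log2(TPM + 1) (0.36, adjusted p = 0.0628). Of 6 arrest genes 4 rose, against 3.87% of all tested genes. This list was chosen with earlier results of these data known, so the contrast is no test of enrichment. Cdkn1a, which encodes the CDK and PCNA inhibitor p21, stood at 593, 667 and 552 CPM in 5-FU against 431, 459 and 442 CPM in PBS (0.44, SE 0.062, edgeR adjusted p = 0.00238). Btg2 (0.38), Ccng1 (0.35) and Cdkn1b (0.26), the gene of the inhibitor p27, rose as well. Gadd45a (0.091) and Cdkn1c (-0.23) were not called, and the Cdkn1b call ended without PBS replicate 2 (0.27, edgeR adjusted p = 0.0570). Cdkn1a and Cdkn1b were highest in replicate 2 within each group, the libraries with the highest summed markers of differentiated muscle. Ccng1 was highest in replicate 3 of each group, and Btg2 in 5-FU replicate 1 and PBS replicate 3. Without 5-FU replicate 2 edgeR still called Cdkn1a (0.365, adjusted p = 0.00366) and Btg2 (0.364, adjusted p = 0.00719). It also still called Ccng1 (0.34, adjusted p = 0.0124) and Cdkn1b (0.23, adjusted p = 0.0415). The part of differentiation in the values of these 4 genes was not tested.

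The depth behind these values was similar across libraries, between 19583312 and 23016735 estimated counts, and members took between 0.252% and 0.281% of them. Within a group, libraries correlated at r = 0.996 to 0.998 across genes on log2(CPM + 1); genes are not independent replicates. The myoblast markers Myod1, Myf5, Des, Msc, Cdh15, Itga7 and Pax7 were all tested and summed to between 3480 and 3930 TPM in 5-FU and between 3160 and 3220 TPM in PBS. edgeR called 1 of these 7, Cdh15 (log2 fold change 0.21, adjusted p = 0.0293), where it called 7.14% of all tested genes. Myod1, Myf5, Des and Itga7 had higher CPM in every 5-FU library and Msc lower, without an edgeR call. Of all tested genes, 15.0% were higher and 14.2% lower in every 5-FU library. The part of these markers in the members' values was not tested. Markers of immune, endothelial, epithelial, adipose and neural cells summed to at most 23.1 TPM per list and library, and Epcam, Krt5, Lep, Rbfox3 and Snap25 were listed at 0 throughout. Whether the replicates came from different cultures is not in the labels, and the spread behind each p-value may be technical.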

How the data were processed

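Libraries were made from mRNA enriched out of Trizol-extracted RNA with a NEBNext Ultra RNA kit, per the labels' protocols, which describe no strand marking. Per the file headers, the deposited table holds estimated counts per gene, not normalized, and TPM made by the authors; between 7.31% and 8.04% of the counts were not whole (tolerance 0.005), for 9 of the 44 members. Per the submitters' processing notes StringTie 1.3.1 was used, for a step they do not name. For aligner, build and annotation: not given in the sources used here. The authors' deposited table of 186 genes gives log2 ratios, p-values and FDR from an unstated test; its 14 per-sample and group columns were not used.

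Counts were rounded and fitted in R 4.3.3 with edgeR 4.0.16 (filterByExpr with at least 10 counts and 15 in total, TMM factors, quasi-likelihood F test, two-sided); 12135 of 15909 genes with a rounded count were tested. SE is the absolute log2 fold change over the square root of F, and intervals use the fit's degrees of freedom. Alternatives were DESeq2 1.42.0, limma 3.58.1 (voom, and trend on log2 TPM for genes with a mean of at least 1), other scalings, filters and thresholds, a replicate block and leaving out each library. The fit was also run on simulated counts, and no result of that run is used here.

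The members, roles and lists were chosen with earlier results of these data known. Every member could be named; library values are given for members at an unadjusted p under 0.05, the lowest p of each role, and Pcna, Mcm2, Mcm5, Cdc6, Cdt1, Ccne1, Ccne2, E2f1 and Uhrf1. From the other lists, called genes, else the lowest p, and Cdkn1a are named. Actn3, Myh1, Myh3, Cdh15, Gadd45a, Cdkn1c, Timeless and Clspn were added after their values were seen. So were the library values of Gins3 and the log2 fold changes of the other differentiated muscle markers.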

Additional observations from a re-analysis of the deposited data

How the results depend on the processing

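The count of 0 members called became 1 by DESeq2 (Pcna), 2 with the replicate block (Cdc6, adjusted p = 0.0438, and Chaf1b, adjusted p = 0.0473, where the block called 9.88% of all tested genes) and 3 at an adjusted p under 0.1 (against 13.2% of all). Leaving out single libraries gave between 0 and 1, which was Pcna without 5-FU replicate 1. The other scalings, filters and tests gave 0. The main fit had no replicate block, and whether same-numbered libraries share a source was not tested. Their deviations from the group means correlated at r = 0.040, 0.154 and 0.179 across genes for numbers 1 to 3. Each library correlated best with its own number. The block raised the count of all genes called to 1199 and also called Dbf4 and Nasp. Of all genes, 866 were called, against 528 and 513 by log2(TPM + 1) and log2(TPM + 0.1), 1605 and 239 at adjusted p under 0.1 and 0.01, and between 249 (without PBS replicate 2) and 656 without single libraries. Negative values numbered 14 by either TPM setting.

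Of the 44 members, 23 kept the sign of their log2 fold change under all 16 alternatives, among them all 7 at an unadjusted p under 0.05; the other 21 were at most 0.084 in size. By log2(TPM + 1) and log2(TPM + 0.1), signs turned for Orc1 (0.023 and 0.026), Mcm2 (0.014 and 0.014), Mcm3 (0.0006 and 0.0006), Gins2 (0.020 and 0.021), Gins4 (0.013 and 0.013), Pold3 (0.032 and 0.033), Rfc2 (0.022 and 0.023), Rfc5 (0.0094 and 0.0096), Rpa2 (0.012 and 0.012), Lig1 (0.010 and 0.010), Ccne1 (0.0065 and 0.0067), E2f1 (0.013 and 0.013) and Slbp (0.021 and 0.022). The median log2 fold change over all genes tested was 0.037 and 0.039 by these TPM settings, against 0.0012 in the main fit. With library size alone, where that median was 0.016, signs turned for Orc1 (0.0092), Gins2 (0.0003) and Slbp (0.010). Rfc4, at 0.0015, turned by DESeq2 (-0.0012), RLE (-0.0008) and upper-quartile factors (-0.0031), without the filter (-0.0011) and with the block (-0.0017). Without single libraries the ranges crossed 0 for Cdc45 (-0.011 to 0.11), Fen1 (-0.015 to 0.090), Gins1 (-0.0088 to 0.12), Gins2 (-0.066 to 0.055), Mcm2 (-0.082 to 0.016), Mcm3 (-0.082 to 0.035), Mcm5 (-0.040 to 0.085), Orc1 (-0.073 to 0.073), Pola1 (-0.12 to 0.17), Pold3 (-0.10 to 0.0084), Pole2 (-0.041 to 0.059), Rfc1 (-0.044 to 0.16), Rfc2 (-0.045 to 0.013), Rfc4 (-0.043 to 0.061), Rfc5 (-0.060 to 0.027), Rpa2 (-0.099 to 0.037) and Slbp (-0.089 to 0.065). The cause of these turns was not tested. Dscc1 was not tested at a mean of at least 5 CPM. Precision is limited by 3 libraries a group and, for Pola1, Dscc1, Ccne2, Orc1 and Gins1, by counts of 81 to 233 in a library.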
